A study of Mus musculus with 16 samples.

Results

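The renin-angiotensin system of the mouse aortic valve is described here through 9 genes of angiotensin formation, breakdown and sensing. They were chosen by name for what they do in the pathway: AGT, REN2, ACE, AGTR1A, AGTR1B, AGTR2, ATP6AP2, LNPEP and ENPEP. Of the 9, 7 had a row in the table of 20992 genes, and 5 (ACE, AGTR1A, LNPEP, ENPEP and ATP6AP2) were high enough to be tested among 15004 genes. AGTR1B and AGTR2 had no row and are not analysed here.

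In this pathway, renin cuts angiotensinogen to release angiotensin I, and angiotensin-converting enzyme turns angiotensin I into the active peptide angiotensin II. Angiotensin II acts mainly through the AT1 receptor, which raises blood pressure and promotes fibrosis, and aminopeptidases shorten the peptide further. Renin cuts the angiotensinogen of its own species well and that of another species poorly, which is why human renin and human angiotensinogen are combined when a mouse is made hypertensive in this way. Renin and angiotensinogen that circulate are made chiefly in the kidney and the liver, so a tissue can respond to angiotensin II without making its precursor.

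RNA was measured by sequencing in aortic valves of mice on a C57BL/6J background. The control mice (CON) carried neither change, the hypertensive mice (HT) overexpressed human renin and human angiotensinogen from transgenes, the hypercholesterolaemic mice (HC) lacked ApoE, and the HC/HT mice had both. No drug or diet is named in the labels, and the promoter of the transgenes, the age of the mice and whether a library holds 1 valve or several are not given in the sources used here. In all, the 15 libraries used comprised 4 CON (1 female), 4 HT (2 females), 4 HC (3 females) and 3 HC/HT (2 females). Since the labels do not say how libraries relate to mice, p-values measure the spread between these libraries only.

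Values are given in units, the deposited normalised value times 1 common factor that sets the median library total to 1000000, so that a deposited 1 is 0.098 units. All 15 deposited totals were nearly equal, between 10207928 and 10210305, so the depth of each library is unknown and no counting error can be given. Between 32.4% and 62.7% of a library's total lay in 4 rows, RN45S (a ribosomal RNA precursor), AK018753, AK140265 and GU332589, and a larger share there lowers the value of every other gene. Each difference was therefore also computed with median-of-ratios factors, which set each library by its typical gene, and the text says where that changed a direction or moved a value by over 1.5 times. The labels held for Apoe, which was at 2.15 to 12.3 units in the 7 knockout libraries and at 56.6 to 1014 units in the 8 others. The human transgenes had no row, nor had mouse Ren1, so the labelled transgenes were not checked. Markers of valve interstitial cells and fibroblasts were present in every library, summing to 5300 to 18280 units, and endothelial markers to 567 to 1259 units. Cardiomyocyte markers summed to 11780 units in HT replicate 2 and to at most 3408 units in any other library.

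The stretch before the start of transcription is shown for 4 of the genes measured here, to set members of different level in the valve side by side. RefSeq on GRCm38.p6 (mm10) held such a stretch for 7 of the 9 members, of which 5 had a row. That of Lnpep lies inside the gene as GENCODE draws it and is not printed. Each window holds the 250 bases before the start, with capitals marking matches on either strand to the motif TATAAA of the TATA box, to GGGCGG of the GC box or to CCAAT of the box of that name. GC box and CCAAT box matches overlap at 1 place in the Atp6ap2 window, where they share bases and are printed as 1 run of capitals. Ace is read on the plus strand of chr11:105967698-105967947, Atp6ap2 on the plus strand of chrX:12587509-12587758, Enpep on the minus strand of chr3:129332750-129332999 and Agt on the minus strand of chr8:124569707-124569956.
Ace: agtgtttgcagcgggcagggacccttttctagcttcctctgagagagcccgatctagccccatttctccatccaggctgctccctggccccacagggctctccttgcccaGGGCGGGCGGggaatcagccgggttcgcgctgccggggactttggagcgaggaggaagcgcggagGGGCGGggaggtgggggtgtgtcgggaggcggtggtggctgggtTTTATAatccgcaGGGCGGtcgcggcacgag
Atp6ap2: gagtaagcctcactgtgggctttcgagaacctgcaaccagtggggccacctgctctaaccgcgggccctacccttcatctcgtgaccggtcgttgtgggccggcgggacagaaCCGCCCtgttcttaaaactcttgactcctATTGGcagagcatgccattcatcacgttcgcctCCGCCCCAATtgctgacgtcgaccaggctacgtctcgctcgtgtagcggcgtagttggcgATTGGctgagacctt
Enpep: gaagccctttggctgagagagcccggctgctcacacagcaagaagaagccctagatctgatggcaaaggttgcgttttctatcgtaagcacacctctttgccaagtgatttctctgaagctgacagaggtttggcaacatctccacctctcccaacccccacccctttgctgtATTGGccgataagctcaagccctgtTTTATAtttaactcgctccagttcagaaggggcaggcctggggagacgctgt
Agt: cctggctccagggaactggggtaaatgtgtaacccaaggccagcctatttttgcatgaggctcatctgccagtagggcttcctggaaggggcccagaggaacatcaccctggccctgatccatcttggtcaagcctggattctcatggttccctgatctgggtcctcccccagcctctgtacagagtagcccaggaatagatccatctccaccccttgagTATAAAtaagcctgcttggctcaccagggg

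The windows of Ace and Atp6ap2 were rich in CpG pairs, with 19 and 20 of them, where the median over 32851 promoters of this length was 6. Enpep held 6 and Agt none. The Ace window held 4 GC boxes, of which a pair overlap, and TATAAA read on the opposite strand. The Atp6ap2 window held 2 GC boxes and 3 CCAAT boxes, and the Enpep window 1 CCAAT box and TATAAA on the opposite strand. In the Agt window TATAAA lay close to the start, and neither of the other motifs was found. Of all promoters, 12.4% held TATAAA, 32.7% GGGCGG and 33.9% CCAAT, so none of these matches is rare. The Lnpep window held 25 CpG pairs. Ace, Atp6ap2 and Lnpep also stood higher in level per kilobase than Enpep and Agt (values below), which describes 5 genes only and shows no link between sequence and level.

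Agt, the gene of angiotensinogen, lies on mm10 chromosome 8 from 124556534 to 124569706 on the minus strand, with 5 exons in GENCODE. AGT was at or near 0 throughout the valve. It was listed at 0 in 9 of the 15 libraries, including all 3 of HC/HT. The highest value was 1.96 units in HT replicate 2, the library with the most cardiomyocyte marker RNA and also the most adipocyte marker RNA (41.4 units). HC replicate 1 followed at 1.18 units, and the other values above 0 were between 0.196 and 0.392 units. HC replicate 1 held only 661 units of cardiomyocyte and 5.68 units of adipocyte markers. CON replicate 1 came second in both sums (3408 and 27.8 units) and was listed at 0 for AGT. The part of these cells in the AGT values was not tested. AGT did not pass the filter for testing, and no fold is given.

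The REN2 row was listed at 0 in 14 of 15 libraries and at 0.392 units in HC/HT replicate 3, a deposited value of 4. Mice of the C57BL/6 background are known to carry a single renin gene, Ren1, so this row is not expected to report renin in these mice, and it was not tested. Renin and its substrate are thus barely or not covered by these values, and most of the measured pathway lies downstream of them, in conversion, sensing and breakdown.

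**Figure D1:**
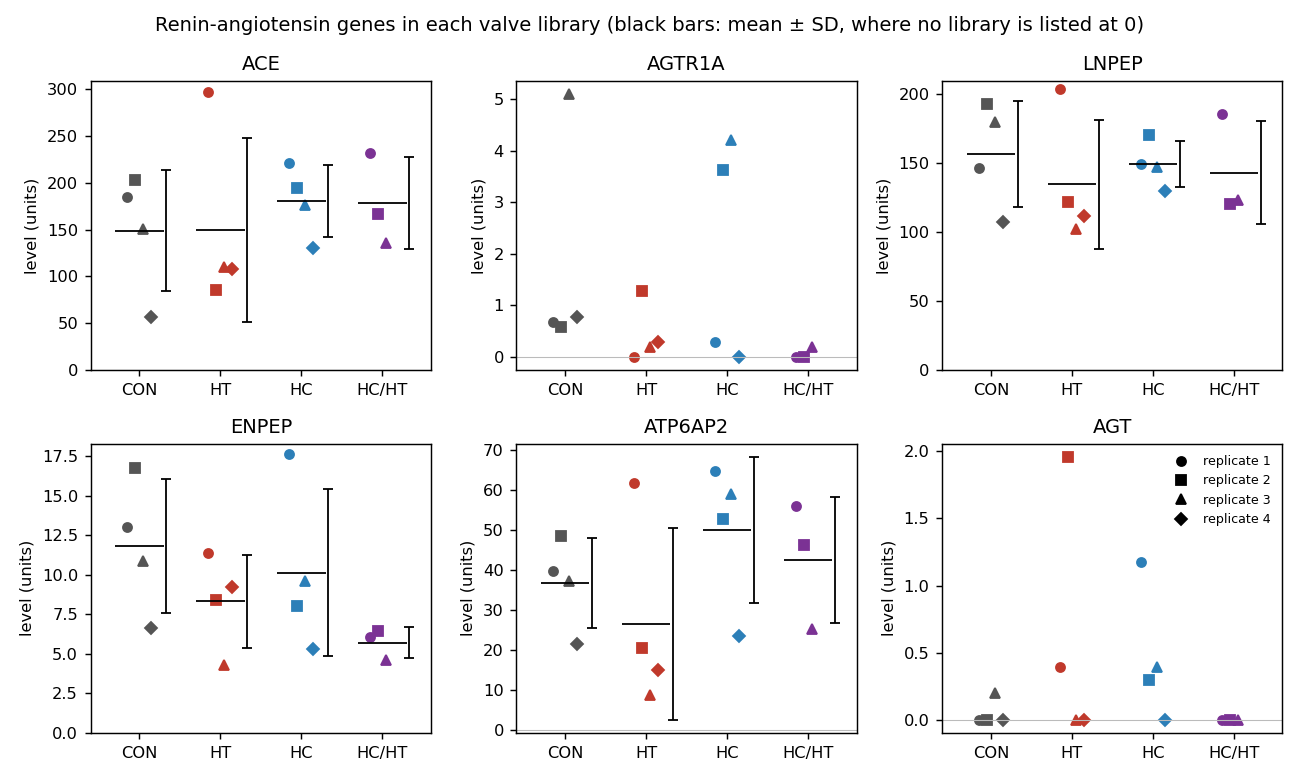
Level in units (y axis, linear) of 6 renin-angiotensin genes in each library by group (x axis), with 1 symbol per library and, for the 4 genes above 0 throughout, black bars for the mean ± SD. ACE and LNPEP overlap in all groups, ENPEP lies low in HC/HT (4.60 to 6.47 units), HT replicate 1 stands above the other HT libraries for ACE (296 units) and ATP6AP2 (61.6 units), and AGTR1A and AGT are at or near 0 in HC/HT.

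The order of the levels was set per kilobase of exon, since long genes collect more reads. Over the 15 libraries ACE stood at 30.9 ± 11.8 units per kilobase (SD), ATP6AP2 at 14.8 ± 7.03 and LNPEP at 10.3 ± 2.35. ENPEP followed at 1.96 ± 0.873 units per kilobase, and AGTR1A and AGT were lowest, at 0.413 and 0.155 on average, with libraries listed at 0. ACE exceeded ATP6AP2 in 15 of 15 libraries, and ENPEP exceeded AGTR1A in 15 of 15. The neighbours ATP6AP2 and LNPEP kept this order in only 11 of 15, and AGTR1A and AGT in 9 of 15. AGTR1A and AGT were both listed at 0 in HC replicate 4 and HC/HT replicates 1 and 2. The order within those pairs is therefore not taken as settled, and it was not tested. Exon lengths are those of GENCODE, and the sources used here do not name the gene models behind the deposited values.

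None of the 5 tested members passed limma's test in any of the 8 comparisons, at a Benjamini-Hochberg adjusted p under 0.05 over all 15004 genes. Few genes of any kind passed. In HT against CON 0 of 5 members passed and 0.0% of all genes, although 1922 genes had an unadjusted p under 0.05. In HC against CON 0 of 5 passed, with 0.167% of all genes. In HC/HT against CON it was 0 of 5, with 0.467% of all genes, and in HC/HT against HC 0 of 5, with 0.0% of all genes and 661 at an unadjusted p under 0.05. In HC/HT against HT 0 of 5 passed, with 0.373% of all genes. The interaction of the 2 models had 0 of 5 and 0.0% of all genes, with 207 at an unadjusted p under 0.05. The 2 pooled comparisons, each the mean of 2 simple ones, gave 0 of 5 members and 0.0133% of all genes for transgene carriers (HT and HC/HT) against non-carriers, and 0 of 5 and 1.47% for Apoe knockout (HC and HC/HT) against Apoe intact. These comparisons share libraries with each other, so their values below are given side by side and not as separate support.

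Groups that did not overlap were also rare among the members. In HT against CON 0 of 5 members were separated, with 4.21% of all genes, in HC against CON 0 of 5 with 4.57%, in HC/HT against HC 0 of 5 with 5.55%, and in HC/HT against HT 0 of 5 with 6.17%. In HC/HT against CON 2 of 5 were separated, ENPEP and AGTR1A, both lower in HC/HT. AGTR1A passed the filter for testing only through libraries outside HC/HT (values below). Of all genes 10.6% were separated in that comparison, and 7.66% with HC/HT lower.

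ACE, the angiotensin-converting enzyme of endothelial and other cell surfaces, was the most abundant member per kilobase, and its levels overlapped between all groups. Ace lies on mm10 chromosome 11 from 105967945 to 105989964 on the plus strand, with 25 exon blocks. The antisense gene Gm11651 shares 295 exon bases with it, and the sources used here do not say whether the counting used strand. RefSeq also lists a start inside the gene, known for the testis form, which the row does not separate.

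In CON, replicates 1 to 4 held 184, 203, 151 and 57.2 units of ACE. In HT they held 296, 85.3, 110 and 108 units. In HC the values were 221, 194, 176 and 131 units, and in HC/HT 232, 167 and 136 units. All groups overlapped, with CON replicate 4 lowest and HT replicate 1 highest of all 15.

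The mean was 149 ± 64.8 units for CON (SD, n = 4), 150 ± 98.2 for HT (n = 4), 178 ± 48.9 for HC/HT (n = 3) and 180 ± 38.0 for HC (n = 4). The log2 difference between HT and CON was -0.07 ± 0.40 (SE), with a 95% interval from -0.89 to 0.74 and limma adjusted p 0.924. It was 0.40 ± 0.27 with median-of-ratios factors, so its direction turned with the scaling while the adjusted p stayed at 0.959. HC/HT against CON gave 0.29 ± 0.44 (adjusted p 0.870), or 0.50 with median-of-ratios factors, and knockout against intact 0.34 ± 0.30 (adjusted p 0.839), or 0.21 with them. Without HC/HT replicate 1 the knockout difference was 0.09, without HT replicate 2 it was 0.15, without CON replicate 4 it was 0.18, and without HT replicate 1 it was 0.62. Carriers against non-carriers gave -0.04, with an interval from -0.63 to 0.55, or 0.29 with median-of-ratios factors. The width of these intervals means that a moderate change of ACE in either direction could not be told from none here.

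AGTR1A, the main angiotensin II receptor of mouse vessels, was low and uneven. Agtr1a lies on mm10 chromosome 13 from 30336441 to 30382867 on the plus strand. In CON its values were 0.686, 0.588, 5.09 and 0.784 units, in HT 0, 1.27, 0.196 and 0.294 units, and in HC 0.294, 3.62, 4.21 and 0 units. In HC/HT it was listed at 0 in replicates 1 and 2 and at 0.196 units in replicate 3. All 3 HC/HT libraries thus lay below all 4 CON libraries, whereas HT and HC each held a library listed at 0 and overlapped CON. AGTR1A passed the filter for testing only through CON replicate 3, HT replicate 2 and HC replicates 2 and 3. Its low rank in HC/HT is therefore a description only. The same holds for its differences, intervals and p-values in the comparisons below. CON replicates 1, 2 and 4, which set the gap, held deposited values of 6 to 8.

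The highest AGTR1A values, in CON replicate 3 and HC replicates 2 and 3, correspond to deposited values of at most 52. Carriers lay below non-carriers by 0.93 ± 0.37 on the log2 scale, an interval from -1.70 to -0.16, with p 0.0204 and limma adjusted p 0.242. The difference was -0.76 with median-of-ratios factors (adjusted p 0.564). Within the knockout mice HC/HT stood at -1.19 ± 0.55 against HC (p 0.0404, adjusted p 0.984), and within the mice with intact Apoe HT stood at -0.67 ± 0.51 against CON (adjusted p 0.499). HC/HT against CON gave -0.98 ± 0.57, with adjusted p 0.562. Knockout against intact gave -0.05 ± 0.40, or -0.15 with median-of-ratios factors. These fitted values depend on the pseudocount of 1, since many of the levels are below 1 unit. With a pseudocount of 4 the carrier difference was -0.40, and with 0.25 it was -1.66. Without CON replicate 3, which held 5.09 units, HT against CON was -0.26 and HC/HT against CON -0.59, and without HC replicate 3, which held 4.21 units, HC/HT against HC was -0.77.

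The 8 smooth muscle markers, of cells that carry this receptor in vessels, summed to 2678 units in CON replicate 3, the highest of all libraries, and to 593 units in HC replicate 2, the highest of HC. In HC/HT they summed to 75.4 to 134 units, below every CON library (188 to 2678 units), and none of the 8 was at 0 throughout. HC replicate 3 nevertheless held only 158 units of these markers with 4.21 units of AGTR1A, and HT replicate 4 held 1258 units with 0.294 units of AGTR1A. In bulk tissue, fewer cells of a type and less RNA per cell cannot be told apart, and the part of smooth muscle content in these values was not tested.

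ENPEP, aminopeptidase A, which removes the first residue of angiotensin II to give angiotensin III, had its lowest group mean in the valves with both changes. Enpep lies on mm10 chromosome 3 from 129269175 to 129332720 on the minus strand, with 19 exon blocks, and shares no exon bases with another gene. In CON the 4 libraries held 13.0, 16.8, 10.9 and 6.66 units, and in HT 11.4, 8.42, 4.31 and 9.21 units. In HC they held 17.6, 8.03, 9.60 and 5.29 units, and in HC/HT 6.07, 6.47 and 4.60 units. The 3 HC/HT libraries lay below all 4 CON libraries, but only narrowly below CON replicate 4, and they overlapped HT and HC. With median-of-ratios factors the gap was wider, with HC/HT at 5.02 to 7.02 units and CON at 8.50 to 12.7 units.

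The ENPEP means were 11.8 ± 4.21 units for CON, 8.33 ± 2.95 for HT, 10.1 ± 5.30 for HC (n = 4 each) and 5.71 ± 0.981 for HC/HT (n = 3). HC/HT against CON gave a log2 difference of -1.04 ± 0.44 (SE), with a 95% interval from -1.93 to -0.14, p 0.0243 and limma adjusted p 0.358. With median-of-ratios factors it was -0.85 ± 0.31 (p 0.0134, adjusted p 0.231). The difference kept its sign in all 20 alternatives tried and passed in none of them, with adjusted p between 0.0555 and 0.875. HT against CON gave -0.55 ± 0.39 (adjusted p 0.473), or -0.13 with median-of-ratios factors and -0.31 without HT replicate 3. Carriers against non-carriers gave -0.58 ± 0.29 (adjusted p 0.303), or -0.27 with median-of-ratios factors, and knockout against intact -0.46 ± 0.30 (adjusted p 0.721).

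The interaction of the 2 models in ENPEP was -0.04 ± 0.58 (adjusted p 1.00), with an interval from -1.22 to 1.14, or -0.29 with median-of-ratios factors. Pericyte markers, of a cell type known to carry aminopeptidase A, summed to 202 to 488 units in CON and to 215 to 237 units in HC/HT, with overlap. In HC/HT against CON 3 of the 6 markers had an unadjusted p under 0.05, beside 11.4% of all genes, and 0 of 6 passed. Smooth muscle and cardiomyocyte marker sums were also lower in HC/HT (164 to 343 units of cardiomyocyte markers) than in every CON library (496 to 3408 units), with 0 of 8 and 0 of 10 of their markers passing. HC replicate 1 nevertheless held the most ENPEP, 17.6 units, beside 188 units of smooth muscle markers. CON replicate 3 held 10.9 units beside the highest smooth muscle sum, 2678 units. The part of these cell types in the ENPEP values was not tested.

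**Figure D2:**
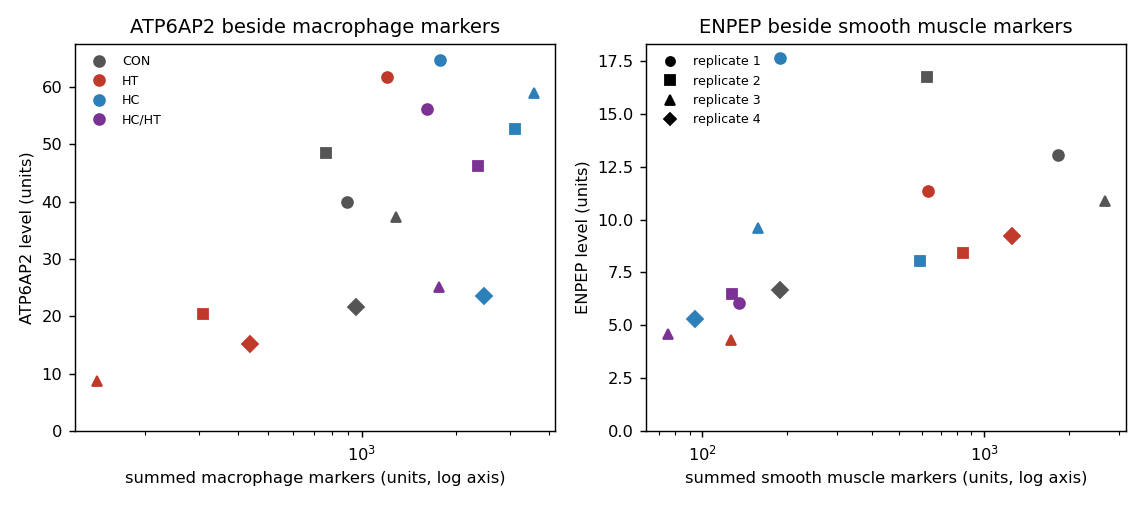
Left, level of ATP6AP2 (y axis, units) against the summed macrophage markers of the same library (x axis, units, log axis). Right, level of ENPEP against the summed smooth muscle markers. Each symbol is 1 library, coloured by group, with the symbol giving the replicate. The 3 HC/HT libraries lie at the low end of smooth muscle markers and of ENPEP, and HT replicates 2, 3 and 4 lie at the low end of macrophage markers and of ATP6AP2. HC replicate 1 nevertheless held the most ENPEP (17.6 units) beside 188 units of smooth muscle markers. Neither relation was tested. Levels are on the deposited totals. With median-of-ratios factors ATP6AP2 in HT replicate 2 was 32.69 units, the median of the 15 libraries.

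The ratio of ACE to ENPEP within a library does not depend on how libraries are scaled. It sets the enzyme that makes angiotensin II beside 1 that removes it, as RNA levels only and without correction for length. In CON the ratio was 14.2, 12.1, 13.9 and 8.59, and in HT 26.1, 10.1, 25.5 and 11.8. In HC it was 12.5, 24.2, 18.3 and 24.7, and in HC/HT 38.2, 25.8 and 29.5. All 3 HC/HT libraries lay above all CON and all HC libraries, while HT fell into a high pair and a low pair, of which HT replicate 1 exceeded HC/HT replicate 2.

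On the log2 scale the mean ratio was 3.58 ± 0.33 (SD) for CON, 4.07 ± 0.72 for HT, 4.27 ± 0.46 for HC and 4.94 ± 0.29 for HC/HT. This ratio is given as a description with no test. The ratio of ACE to LNPEP, by contrast, overlapped in all groups, from 0.534 to 1.26 in CON, 0.703 to 1.46 in HT, 1.01 to 1.48 in HC and 1.10 to 1.39 in HC/HT.

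**Figure D3:**
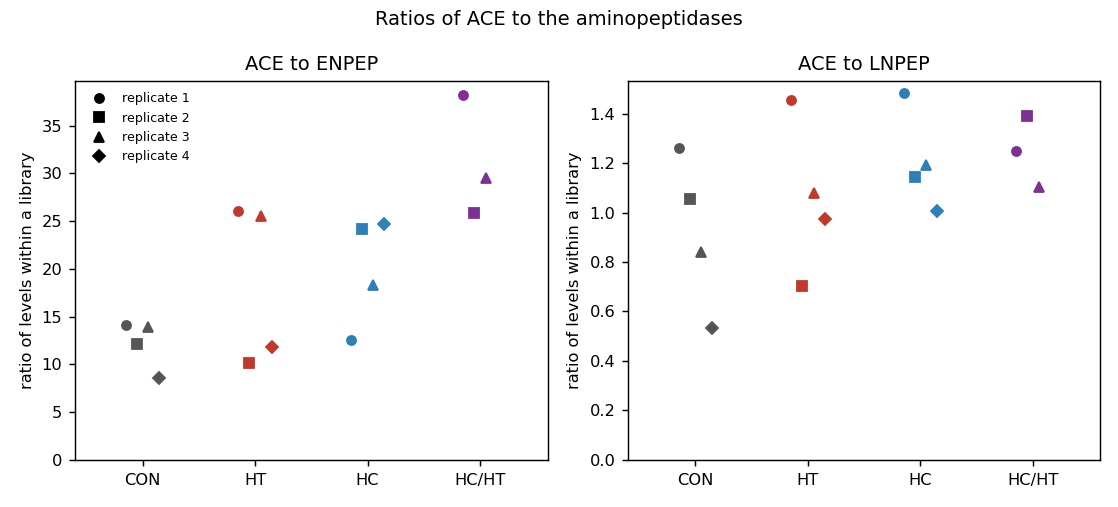
Ratio of the ACE level to the ENPEP level (left) and to the LNPEP level (right) within each library (y axis, linear from 0) by group (x axis), 1 symbol per library. The ACE to ENPEP ratio of the 3 HC/HT libraries (25.8 to 38.2) lies above the 4 CON libraries (8.59 to 14.2), and the ACE to LNPEP ratios overlap in all groups.

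LNPEP, the insulin-regulated aminopeptidase that binds angiotensin IV, was the steadiest member. Lnpep lies on mm10 chromosome 17 from 17521410 to 17625050 on the minus strand, with 20 exon blocks. Its values were 146, 193, 180 and 107 units in CON, 204, 121, 102 and 112 in HT, 149, 170, 147 and 130 in HC, and 186, 120 and 123 in HC/HT. The groups overlapped throughout, within about the same range.

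The means of LNPEP were 157 ± 38.3 units for CON, 135 ± 46.7 for HT, 149 ± 16.6 for HC (n = 4 each) and 143 ± 37.0 for HC/HT (n = 3). The SD of its log2 level over the 15 libraries was 0.32, and 9.2% of the 1263 genes within 2-fold of its level had a smaller one (17.7% of 1249 with median-of-ratios factors). HT against CON gave -0.26 ± 0.30 (adjusted p 0.635), turning to 0.21 with median-of-ratios factors, and carriers against non-carriers -0.17 ± 0.22 (adjusted p 0.676), turning to 0.17. HC/HT against CON gave -0.16 ± 0.34 (adjusted p 0.911), turning to 0.04. Knockout against intact gave 0.01, with an interval from -0.47 to 0.48, turning to -0.12. Leaving out 1 library kept HT against CON between -0.45 (without HT replicate 1) and -0.12 (without CON replicate 2), and carriers against non-carriers between -0.33 (without HC/HT replicate 1) and -0.10 (without CON replicate 2).

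ATP6AP2, the prorenin receptor and an accessory subunit of the vacuolar proton pump, varied most among the abundant members. Atp6ap2 lies on mm10 chromosome X from 12587801 to 12617049 on the plus strand, with 9 exons. In CON it held 39.9, 48.5, 37.2 and 21.6 units, and in HT 61.6, 20.5, 8.82 and 15.2 units. In HC it held 64.7, 52.7, 59.0 and 23.6 units, and in HC/HT 56.0, 46.1 and 25.2 units. HT replicates 2, 3 and 4 were the lowest of the 15, while HT replicate 1 was the second highest, so the HT group spanned nearly the whole range. With median-of-ratios factors HT replicate 2 held 32.69 units, the median of the 15 libraries. HT replicates 3 and 4 stayed the lowest, at 13.35 and 15.74 units.

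The means of ATP6AP2 were 36.8 ± 11.2 units for CON, 26.5 ± 23.9 for HT, 50.0 ± 18.3 for HC (n = 4 each) and 42.5 ± 15.8 for HC/HT (n = 3). HT against CON gave a log2 difference of -0.86 ± 0.46 (SE), with an interval from -1.82 to 0.09 and limma adjusted p 0.405, or -0.41 ± 0.34 with median-of-ratios factors. HC/HT against HT gave 0.87 ± 0.49 (adjusted p 0.643), or 0.62 ± 0.37. Knockout against intact gave 0.53 ± 0.35 (adjusted p 0.738), and carriers against non-carriers -0.52 ± 0.33 (adjusted p 0.403), or -0.20 with median-of-ratios factors. Single libraries moved these values. Without HC/HT replicate 1 knockout against intact was 0.19, HC/HT against HT 0.34 and the carrier difference -0.78, and without HT replicate 1 the first 2 were 0.88 and 1.42. Without HT replicate 3 HT against CON was -0.47, HC/HT against HT 0.56 and the carrier difference -0.33, which was -0.32 without HC/HT replicate 3. HC/HT and CON stood 0.01 apart, with an interval from -1.05 to 1.07, or 0.21 apart with median-of-ratios factors. The SD of its log2 level was 0.82, and 91.1% of the 4099 genes within 2-fold of its level varied less (86.5% of 4217 with median-of-ratios factors).

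Macrophages are rich in the vacuolar proton pump, and 8 macrophage markers were summed beside ATP6AP2. HT replicate 1 held 1205 units of them, within the CON range (766 to 1290 units), whereas HT replicates 2, 3 and 4 held 307, 140 and 436 units, below every other library. In HC the sum was 1785 to 3561 units and in HC/HT 1623 to 2351 units, all above CON and HT. HC replicate 4 nevertheless held 23.6 units of ATP6AP2, less than 3 of the 4 CON libraries, beside 2463 units of macrophage markers. None of the 8 markers was at 0 throughout, and the part of macrophages in ATP6AP2 was not tested.

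**Figure D4:**
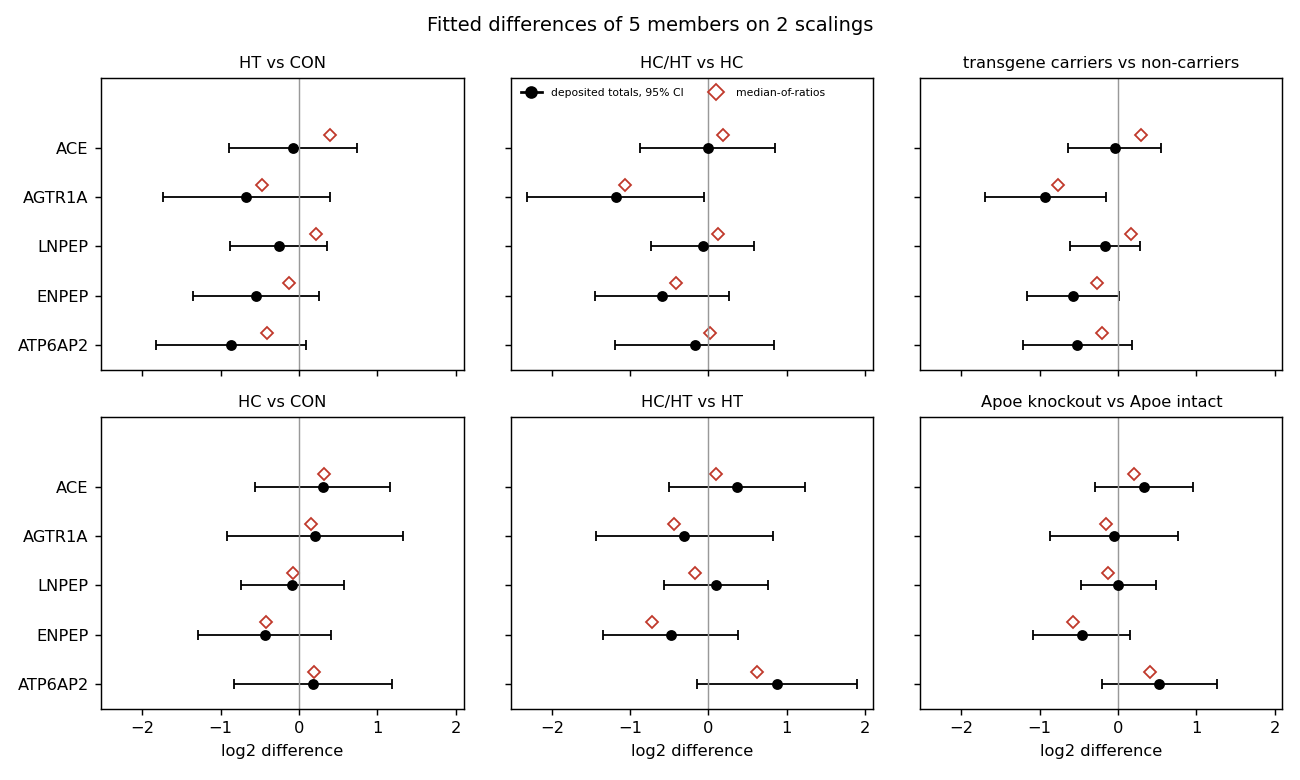
Log2 differences (x axis) of the 5 tested members (y axis) in 6 comparisons. Black dots with bars are the limma estimates on the deposited totals with 95% intervals, and open red diamonds the estimates with median-of-ratios factors. In the HT against CON panel the diamonds of ACE (0.40) and LNPEP (0.21) lie on the other side of 0 from their dots (-0.07 and -0.26), and AGTR1A has the most negative dots in both HC/HT against HC (-1.19) and carriers against non-carriers (-0.93). AGTR1A passed the filter for testing only through libraries outside HC/HT, so its dots are a description only.

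As a group the 5 members moved little against the table as a whole. In HT against CON all 5 differences were negative, with a median of -0.55, but the median of all 15004 genes was also -0.42. On the median-of-ratios scale those medians became -0.13 and -0.01, with 2 of 5 members positive. In HC/HT against HC all 5 were negative as well, with a median of -0.17 against -0.18 for all genes. With median-of-ratios factors 3 were positive, and the median was 0.02 against -0.02. Carriers against non-carriers had 5 negative and a median of -0.52, against -0.30 for all genes. With median-of-ratios factors 2 were positive, and the median was -0.20 against -0.01. In HC against CON the member median was 0.18 against -0.02, in HC/HT against HT 0.10 against 0.21, and in knockout against intact 0.01 against 0.09. With median-of-ratios factors the last 2 member medians turned to -0.17 and -0.12, against -0.01 for all genes in both.

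Levels of the members across libraries were less alike after rescaling. Over the 15 libraries the log2 levels of ACE and LNPEP had a Pearson r of 0.81 as deposited and 0.38 with median-of-ratios factors, and those of ATP6AP2 and LNPEP 0.79 and 0.15. ACE and ATP6AP2 had 0.78 and 0.52, and ACE and ENPEP 0.45 and -0.09. These are descriptions over libraries that share a total, with no test.

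The genes whose pattern was most like a member's were found over 10641 genes with a mean of at least 5 units, by Pearson r of log2 levels over the 15 libraries with median-of-ratios factors. For ACE they were EPHA2 (r 0.89), SLC1A4 (0.84), SDC4 (0.83), ALG3 (0.82) and ERGIC1 (0.81), of which SLC1A4, an amino acid transporter, and SDC4, the proteoglycan syndecan 4, were also among its 5 nearest as deposited. For ATP6AP2 they were GNG10 (0.93), SEP15 (0.92), ARL6IP1 (0.92), RPS21 (0.91) and TUBB5 (0.91), and the first 3 were also nearest as deposited. For LNPEP they were QK (0.82), DPY19L4 (0.79), SERPINB6B (0.79), CAV1 (0.76) and TMEM41B (0.75), none of them nearest as deposited. For ENPEP they were RCN3 (0.83), MRPS22 (0.82), SELENBP1 (0.82), RANGRF (0.82) and the chemokine gene CCL19 (0.80), of which RCN3 was also nearest as deposited. The best of 10641 correlations over 15 libraries is high by selection, and no p is given.

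The wider pathway was covered by 80 further genes in 6 lists, of which 75 had a row and 69 were tested. The lists were chosen with earlier results of these data known, so their shares beside all genes are a description only. Of the 69, 0 passed in HT against CON, HC/HT against CON, HC/HT against HC, the interaction and carriers against non-carriers. SPP1 alone passed in HC against CON, CTSD alone in HC/HT against HT, and 5 passed in knockout against intact (CTSD, SGK1, SPP1, CYBB and NCF1), all higher. At an unadjusted p under 0.05 there were 9 of the 69 in HT against CON, beside 12.8% of all genes, 9 in carriers against non-carriers, beside 16.7%, and 20 in knockout against intact, beside 9.84%. The first 2 shares are thus near or below those of the whole table.

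Other enzymes that cut angiotensins formed a list of 14, of which 12 were tested. CTSD, the lysosomal protease cathepsin D, which can release angiotensin I from angiotensinogen in vitro, rose in the Apoe knockout valves. It held 151 to 433 units in CON and 148 to 509 in HT, against 744 to 1220 in HC and 543 to 1025 in HC/HT. Knockout against intact gave 1.65 ± 0.29 (SE, adjusted p 0.00198), and HC/HT against HT 1.76 ± 0.41 (adjusted p 0.0491), a call that only 7 of 20 alternatives kept. The other 11 enzymes passed in no comparison, and the list median was 0.28 in knockout against intact beside 0.09 for all genes, or 0.17 beside -0.01 with median-of-ratios factors.

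Receptors and their partners were a list of 6, of which 5 were tested and 0 passed. AGTRAP, a protein that promotes uptake of the AT1 receptor into the cell, held 15.0 ± 5.74 units for CON, 8.11 ± 1.81 for HT, 18.4 ± 3.01 for HC and 9.18 ± 2.41 for HC/HT. HT against CON gave -0.78 ± 0.36 (adjusted p 0.378), or -0.34 with median-of-ratios factors. ATP6AP1, the partner of ATP6AP2 in the proton pump, gave -0.51 ± 0.31 in HT against CON (adjusted p 0.432), or -0.04 with median-of-ratios factors.

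MAS1, the receptor of angiotensin 1-7, falls outside the naming rule and was chosen after its values were seen. It held 2.65, 2.55, 5.98 and 0.980 units in CON and 0.784, 0.392 and 0.686 units in HC/HT, without overlap. The gap lay between deposited values of 10 in CON replicate 4 and 8 in HC/HT replicate 1. MAS1 passed the filter for testing only through libraries outside HC/HT, so this gap and the p-values below are a description only. Of all genes 10.6% were separated in HC/HT against CON, and 7.66% with HC/HT lower. HC/HT against CON gave -1.15 ± 0.45 (p 0.0161, adjusted p 0.316), or -0.54 with a pseudocount of 4. Its HT values were 1.37 to 3.33 units and its HC values 0.490 to 1.37 units. Neither AGTR1A nor MAS1 passed the test.

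AT1 signalling was the longest list, with 27 genes, all tested, among them the Gq proteins and phospholipase C, and 0 passed in any comparison. Its median was -0.41 in HT against CON beside -0.42 for all genes, and 0.07 in knockout against intact beside 0.09. With median-of-ratios factors both medians turned, to 0.04 with 14 of 27 positive, and to -0.06, beside -0.01 for all genes in each. RGS2, which ends Gq signalling, gave -0.78 ± 0.34 in HT against CON (adjusted p 0.371), or -0.32 with median-of-ratios factors. ROCK1 held 197 ± 75.7 units in CON and 112 ± 20.6 in HT, a difference of -0.70 ± 0.31 (adjusted p 0.374), or -0.22 with median-of-ratios factors.

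Of 7 genes of the aldosterone arm 4 were tested and 1, SGK1, rose in knockout against intact, where 1.47% of all genes passed. That call was kept in 14 of 27 alternatives and was lost with median-of-ratios factors (values below). SGK1, a kinase induced by the mineralocorticoid and glucocorticoid receptors, held 28.2 ± 13.7 units for CON, 22.3 ± 12.3 for HT, 72.8 ± 32.1 for HC and 52.6 ± 12.8 for HC/HT, and knockout against intact gave 1.12 ± 0.28 (adjusted p 0.0357). Kinin genes, which ACE also acts on through bradykinin, had 3 of 4 rows and 0 tested.

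Genes that angiotensin II is known to induce made a list of 22, of which 21 were tested. In HT against CON 0 passed, with a median of -0.16 beside -0.42 for all genes, and 10 of 21 were positive, beside 13.3% of all genes. With median-of-ratios factors the median turned to 0.31 beside -0.01, and 14 of 21 were positive, beside 48.8%. In knockout against intact 3 of 21 rose, SPP1, CYBB and NCF1, where 1.47% of all genes passed. In that comparison 20 of 21 were positive, beside 61.8% of all genes, and the median was 0.71 beside 0.09, or 0.58 with median-of-ratios factors. The list was chosen with earlier results of these data known, so these shares are a description only. SPP1, osteopontin, was at 1.76 to 23.7 units for CON, 9.01 to 63.0 for HT, 141 to 2098 for HC and 238 to 381 for HC/HT. Knockout against intact gave 4.76 ± 0.72 for SPP1 (adjusted p 0.00854), and HC against CON 6.19 ± 0.99 (adjusted p 0.0450), a call that 10 of 21 alternatives kept.

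CYBB and NCF1 encode subunits of the phagocyte NADPH oxidase. CYBB held 45.2 to 68.0 units for CON, 11.5 to 119 for HT, 106 to 189 for HC and 96.3 to 160 for HC/HT, and knockout against intact gave 1.52 ± 0.35 (adjusted p 0.0318). NCF1 gave 1.26 ± 0.31 (adjusted p 0.0329). With median-of-ratios factors the calls of CYBB (1.40, adjusted p 0.0563), NCF1 (1.15, adjusted p 0.0680) and SGK1 (1.00, adjusted p 0.0579) were lost with differences nearly as large, and those of CTSD and SPP1 were kept. In knockout against intact all 8 macrophage markers were also higher, and 4 of 8 passed, beside 1.47% of all genes. Their part in the calls above was not tested. Without the 3 libraries that correlated least with the others (HT replicates 2 and 3 and HC/HT replicate 2), all 5 knockout calls of the wider pathway were lost, with adjusted p between 0.115 and 0.580. The differences were then 1.45 for CTSD, 4.75 for SPP1, 1.00 for SGK1, 1.11 for CYBB and 0.88 for NCF1.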

How the data were processed

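Total RNA of aortic valves was amplified from 1 ng with the Nugen Ovation RNA-Seq v2 system and made into libraries with a KAPA kit, per the labels' protocols. FastQC 0.11.2, Bowtie 1.0.1, SAMtools 0.1.9, edgeR and mm10 are named, per the submitters' processing notes. Annotation, counting step and normalisation: not given in the sources used here. What the authors deposited is treated as a score, namely normalised counts in whole numbers, with nearly equal totals, so no count test was used. Of 16 labelled libraries 15 were used, and 1 column without a name was left out.

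Values were multiplied by 0.0979537. A gene needed 1 unit or more in 4 or more libraries, which left 15004. These were fitted by limma 3.58.1 (R 4.3.3) after adding a pseudocount of 1 and taking log2, with group and sex as terms and eBayes with trend and robust. The fit was tested on simulated data. Fold changes on this scale understate the change of low genes. P-values are two-sided, adjusted by Benjamini-Hochberg over all genes of a comparison, and called under 0.05. The pathway lists fall under angiotensin-processing enzymes, receptors and partners, AT1 signalling, the aldosterone arm, kinins and angiotensin II response genes. The text names all members, each listed gene that passed, and otherwise the 2 of a list with the smallest p in HT against CON and in HC/HT against HC, and the 5 genes most like a member. Other listed genes, except MAS1, enter the counts only. The marker lists cover smooth muscle, pericyte, endothelial, valve interstitial and fibroblast, cardiomyocyte, macrophage, adipocyte, mast cell, melanocyte, nerve and Schwann cell, and erythroid genes. Mast cell markers summed to 2.06 to 65.5 units, melanocyte markers to 21.8 to 263, nerve and Schwann cell markers to 15.6 to 55.5 and erythroid genes to 7.25 to 12150. The members and lists were chosen with earlier results of these data known. Gene positions are from GENCODE and promoters from RefSeq, both on GRCm38. Alternatives were 3 scalings, 2 pseudocounts, 2 filters, no sex term, a replicate block, array weights, plain eBayes, only the groups compared, and leaving out each library.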

Additional observations from a re-analysis of the deposited data

Results flagged for a closer look

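In 6 of 44 groups of 4 libraries, taken over the members and the named pathway genes, the highest library stood apart from the other 3. Chance flags about 1 in 20 groups where values are normally distributed and groups are independent. These groups share libraries, so the 6 of 44 cannot be set against that rate. HT replicate 1 held 296 units of ACE, with the next HT library at 110 units. The same library held 509 units of CTSD, with the next at 210 units, and 170 units of ATP6AP1, with the next at 82.8 units. In HT the highest ROCK1 value was 143 units in replicate 4, with the next at 104 units. CON replicate 3 held 5.09 units of AGTR1A, with the next CON library at 0.784 units. CON replicate 2 held 23.7 units of SPP1, with the next at 4.90 units. Without HT replicate 1 the ACE difference between HT and CON was -0.41 in place of -0.07, and without CON replicate 3 the AGTR1A difference was -0.26 in place of -0.67 between HT and CON, -0.59 in place of -0.98 between HC/HT and CON, and -0.72 in place of -0.93 between carriers and non-carriers. Neither gene passed limma's test with or without these libraries.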

How the results depend on the processing

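No member passed under any alternative but 1. With a replicate block, carriers against non-carriers called 1 of 5 members, AGTR1A (-1.02, adjusted p 0.0421), in place of 0. The same fit called 768 of all 15004 genes in that comparison, 752 of them lower in carriers. AGTR1A passed the filter for testing only through libraries outside HC/HT, so its call is a description only. Whether replicate numbers pair the libraries was not settled by these values. The deviations of same-numbered libraries from their group means had r from -0.24 to 0.51 over 21 pairs (median 0.07), 10 of them over 0.1. Those of differently numbered libraries had r from -0.50 to 0.44 over 63 pairs (median -0.02), 14 of them over 0.1. In all, 3 of 15 libraries correlated best with their own number. The block changed the calls over all genes to 1 in HT against CON, 42 in HC against CON, 222 in HC/HT against CON, 1 in HC/HT against HC, 138 in HC/HT against HT, 768 for carriers and 339 for knockout, from 0, 25, 70, 0, 56, 2 and 220. It ended the calls of CYBB (adjusted p 0.0733) and of SPP1 in HC against CON (0.107).

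Over the other alternatives these counts ranged from 0 to 412, 19 to 316, 19 to 726, 0 to 2, 6 to 221, 0 to 2089 and 45 to 479, with the highest of each under limma array weights except HC/HT against HT, where fitting only the groups compared gave 221. Leaving out 1 library gave 9 (without CON replicate 2) to 31 in HC against CON, 7 (without CON replicate 2) to 143 (without HC/HT replicate 3) in HC/HT against CON, 0 to 3 in HC/HT against HC, 7 (without HT replicate 2) to 259 (without HT replicate 1) in HC/HT against HT, 0 to 521 (without HC replicate 4) for carriers and 72 (without HT replicate 2) to 418 (without HT replicate 1) for knockout. HT against CON stayed at 0 without any 1 library.

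Signs of differences near 0 turned, none of them past the threshold. With median-of-ratios factors, quantile normalisation and totals without the 4 most abundant rows, ACE became 0.40, 0.39 and 0.29 in HT against CON, and for carriers 0.29, 0.31 and 0.26. With the same 3, LNPEP became 0.21, 0.20 and 0.11 in HT against CON, then 0.0438, 0.10 and 0.0867 in HC/HT against CON, 0.17, 0.18 and 0.14 for carriers, and -0.12, -0.0837 and -0.0490 for knockout. Without the 3 libraries that correlated least, an alternative chosen after seeing the data, ACE became 0.33 in HT against CON and 0.21 for carriers, AGTR1A 0.14 for knockout, and LNPEP 0.0047 for carriers and -0.0445 for knockout. Array weights gave ACE -0.0276 and ATP6AP2 -0.11 in HC/HT against CON, and AGTR1A 0.15 and LNPEP -0.0282 for knockout. The replicate block gave ATP6AP2 -0.15 in HC/HT against CON and LNPEP -0.0258 for knockout, and a pseudocount of 4 gave AGTR1A 0.0229 for knockout. Leaving out 1 library, ACE ranged from -0.44 to 0.17 in HT against CON, -0.13 to 0.57 in HC/HT against CON and -0.23 to 0.0774 for carriers, AGTR1A from -0.30 to 0.19 for knockout, the ENPEP interaction from -0.294 to 0.192, ATP6AP2 from -0.59 to 0.37 in HC/HT against CON, and LNPEP from -0.53 to 0.000325 in HC/HT against CON and -0.20 to 0.17 for knockout. With a filter at 5 units AGTR1A and MAS1 were not tested.

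Of the wider pathway, the CTSD call in HC/HT against HT was lost with median-of-ratios factors, either other pseudocount, either other filter, array weights, plain eBayes, and without HT replicate 2, 3 or 4 or HC/HT replicate 1 or 2 (adjusted p up to 0.374), and without the 3 libraries that correlated least (1.33, adjusted p 1.00). The knockout calls of CYBB, NCF1 and SGK1 were each kept in 14 of 27 alternatives and lost without HT replicate 2, HC replicate 2 or HC/HT replicate 1, among others, and that of SPP1 was lost without HC/HT replicate 1 (0.0578). The call of SPP1 in HC against CON was lost in 7 of 8 omissions of 1 library, those of CON replicates 1 to 4 and HC replicates 2, 3 and 4. The depth of each library is unknown, so values near 0 carry no stated precision. The cause of these changes was not tested.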
